A study of Drosophila melanogaster with 15 samples.

Results

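R-loops were compared gene by gene between S2 cells and embryos of 14–16 h after egg laying. A gene was placed in a list where at least 1 bp of a peak on its own strand overlapped it, so that each gene fell into 1 of 4 classes: peaks in S2 cells only, in both lists, in 14–16 h embryos only, or in neither. Of 17796 annotated genes on the chromosomes that carry peaks, 6338 held a peak in at least 1 of the lists. S2 cells are a cultured line, described by the study as derived from late-stage embryos, and the embryos were whole, untreated Oregon R animals from population cages at 2–3 h and 14–16 h. Each sample type had 2 ssDRIP samples, 2 inputs and 1 ssDRIP sample pre-treated with RNase H1, and 2–3 h embryos serve here for context alone. Every deposited list pools its 2 ssDRIP replicates and holds the position, width and strand of each peak without a height or read count. A condition is therefore 1 list, its depth is unknown, and no difference between lists could be tested against replicate error. Intervals given after a share are 95% Wilson intervals for counting error alone, and neither genes nor peaks are replicates. Whole embryos mix many cell types, so a gene's peak may come from any of them, and a peak does not measure expression.

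An R-loop is a structure in which RNA pairs with the template strand of DNA and displaces the other strand. It forms mostly during transcription, and RNase H enzymes remove it by degrading the RNA of the hybrid. In ssDRIP-seq the S9.6 antibody recovers RNA:DNA hybrids from sonicated nucleic acid, and sequencing of single DNA strands keeps the strand of origin. Purine-rich RNA on its template is known to give stable hybrids, which is why the base composition of the peaks is shown first.

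Peaks in S2 cells only were found in 2455 genes, or 13.8% of all genes (95% interval 13.3 to 14.3). Both lists met in 2335 genes, or 13.1% (12.6 to 13.6), and 1548 genes, or 8.7% (8.29 to 9.12), held peaks in 14–16 h embryos only. The genes in both lists were 48.7% of the 4790 genes with S2 peaks and 60.1% of the 3883 genes with peaks in 14–16 h embryos. The peaks that separated the classes also differed in sequence, and the following stretches are examples. They are the central 300 bases of 1 peak from each of pnr and Akap200, the S2-only genes with the most peaks, from Dhc98D, an S2-only gene with most of its peaks in coding exons, from bi, the gene with the most peaks of 14–16 h embryos only, and from hth, which held equal numbers in both lists. For each gene the peak with the longest run of A or G was taken among those whose central 300 bases were free of untranslated exon sequence. For hth the choice was limited to peaks that overlapped no peak of the other list, and for Dhc98D to those centred in coding exons. The stretches were thus picked for such runs and cannot show a difference between the classes, for which shares over all peaks are given below. Bases are dm6, 5′ to 3′ on the strand of the peak and gene, and capitals mark runs of at least 10 A or G.
pnr, S2 peak across the gene start, chr3R:16025673-16025972, forward strand: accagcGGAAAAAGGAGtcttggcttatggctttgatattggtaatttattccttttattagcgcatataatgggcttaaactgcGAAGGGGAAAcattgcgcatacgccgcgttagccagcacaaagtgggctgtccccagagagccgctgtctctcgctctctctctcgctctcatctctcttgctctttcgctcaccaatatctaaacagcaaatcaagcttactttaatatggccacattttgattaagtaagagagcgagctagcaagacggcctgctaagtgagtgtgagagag
Akap200, S2 peak in an intron, chr2L:8420273-8420572, forward strand: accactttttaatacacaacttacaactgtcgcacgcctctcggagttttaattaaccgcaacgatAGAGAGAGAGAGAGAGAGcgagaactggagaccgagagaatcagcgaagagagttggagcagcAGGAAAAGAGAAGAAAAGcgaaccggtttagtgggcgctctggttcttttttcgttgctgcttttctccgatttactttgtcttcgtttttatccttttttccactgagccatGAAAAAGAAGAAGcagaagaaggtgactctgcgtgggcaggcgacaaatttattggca
Dhc98D, S2 peak in a coding exon, chr3R:28490945-28491244, forward strand: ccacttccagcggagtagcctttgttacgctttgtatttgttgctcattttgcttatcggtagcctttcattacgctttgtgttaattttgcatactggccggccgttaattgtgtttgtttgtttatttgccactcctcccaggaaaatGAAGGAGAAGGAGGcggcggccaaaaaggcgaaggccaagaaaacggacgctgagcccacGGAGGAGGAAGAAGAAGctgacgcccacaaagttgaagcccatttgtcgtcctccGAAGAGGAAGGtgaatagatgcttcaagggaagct
hth, S2 peak in an intron, chr3R:10570881-10571180, reverse strand: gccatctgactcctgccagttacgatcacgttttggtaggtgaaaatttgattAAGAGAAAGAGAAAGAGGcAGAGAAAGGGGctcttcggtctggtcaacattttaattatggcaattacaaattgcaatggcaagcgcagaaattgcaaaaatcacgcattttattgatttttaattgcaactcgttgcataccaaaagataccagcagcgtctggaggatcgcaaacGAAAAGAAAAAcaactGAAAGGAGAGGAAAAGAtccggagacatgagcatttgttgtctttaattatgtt
hth, 14–16 h peak in an intron, chr3R:10519440-10519739, reverse strand: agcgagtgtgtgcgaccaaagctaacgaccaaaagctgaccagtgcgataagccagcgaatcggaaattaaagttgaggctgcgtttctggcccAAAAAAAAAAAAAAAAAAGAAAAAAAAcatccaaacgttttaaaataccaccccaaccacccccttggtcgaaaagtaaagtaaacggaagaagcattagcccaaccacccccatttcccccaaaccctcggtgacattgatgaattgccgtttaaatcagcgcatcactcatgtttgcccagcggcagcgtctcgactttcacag
bi, 14–16 h peak in an intron, chrX:4466608-4466907, forward strand: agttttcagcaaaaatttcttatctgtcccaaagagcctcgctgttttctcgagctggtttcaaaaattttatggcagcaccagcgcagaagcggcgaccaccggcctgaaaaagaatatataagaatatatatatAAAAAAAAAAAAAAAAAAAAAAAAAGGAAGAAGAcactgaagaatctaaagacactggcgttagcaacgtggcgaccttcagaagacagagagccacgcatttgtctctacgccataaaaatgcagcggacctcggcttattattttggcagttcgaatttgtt

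The S2 stretches of Akap200, Dhc98D and hth carry mixed runs of A and G, of which the longest spans 18, 17 and 18 bases. None of these stretches holds more than 5 A in a row. The pnr stretch has a longest purine run of 11 bases. Its peak crosses the gene start at 16026079, but the bases printed lie wholly upstream of it. The stretches from 14–16 h embryos carry longer runs of A alone, with 25 A in a row in bi and 18 in the peak of hth. Stretches of 14–16 h peaks of nAChRalpha3 and cac taken in the same way, not printed, held 15 and 11 in a row. That of the S2 peak of alph held 6. The share of A was 37% in bi and 35.7% in the 14–16 h stretch of hth. In S2 stretches it was 35% in hth, 26% in pnr, 29.3% in Akap200 and 25% in Dhc98D. Of the stretches not printed, cac held 50.3% A, nAChRalpha3 39.3% and alph 34.3%.

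Across all members the same 2 patterns, chosen after the lists had been seen, separated the classes. Among 2849 S2 peaks in S2-only genes, 3.05% (2.48 to 3.75) held a run of at least 10 A in their central 300 bases on the peak's strand. Among 2165 peaks of 14–16 h embryos in genes of that list only, 48.8% (46.7 to 50.9) did. Windows of 300 bases laid along all genes held such a run in 4.08%, and windows in coding exons in 0.0328%. The hexamer GGAGGA went the other way. It occurred in 48.5% (46.7 to 50.4) of S2 peaks in S2-only genes and in 4.25% (3.48 to 5.18) of 14–16 h peaks in genes of that list only, with 9.53% of windows over genes and 25.8% of windows over coding exons. Its reverse complement TCCTCC was in 5.65% and 4.25% of these peaks of S2 cells and 14–16 h embryos. Runs of T of the same length were found in 0.913% of the S2 peaks and 16.3% of the 14–16 h peaks. Runs of at least 15 bases that are A or G, which include runs of A alone, stood closer together. They were in 22.7% and 28.5%, both above the 4.52% of gene windows. Runs that mix A and G were not counted apart. Mean GC content was 48.2% and 38.2%.

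Within genes of both lists the A run went with overlap among S2 peaks, but was common in 14–16 h peaks with or without overlap. Of S2 peaks in these genes, 44.9% (43.3 to 46.6) of those that overlapped a 14–16 h peak held a run of A, and 5.92% (5.3 to 6.6) of those that lay apart from all of them. Peaks of 14–16 h embryos differed less by overlap, with 51.8% (50.2 to 53.5) of the overlapping and 48.5% (47.3 to 49.8) of the separate ones. GGAGGA occurred in 30.2% of separate and 15.6% of overlapping S2 peaks, and in 3.49% of separate and 10.3% of overlapping 14–16 h peaks. Among separate peaks centred in introns, a run of A was in 6.68% of S2 peaks and 47% of 14–16 h peaks. The gap was there on each chromosome group. On the autosome arms a run of A was found in 2.93% of S2 peaks in S2-only genes and in 45.9% of 14–16 h peaks in genes of that list only, and on X in 5.06% and 52.8%.

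**Figure D1:**
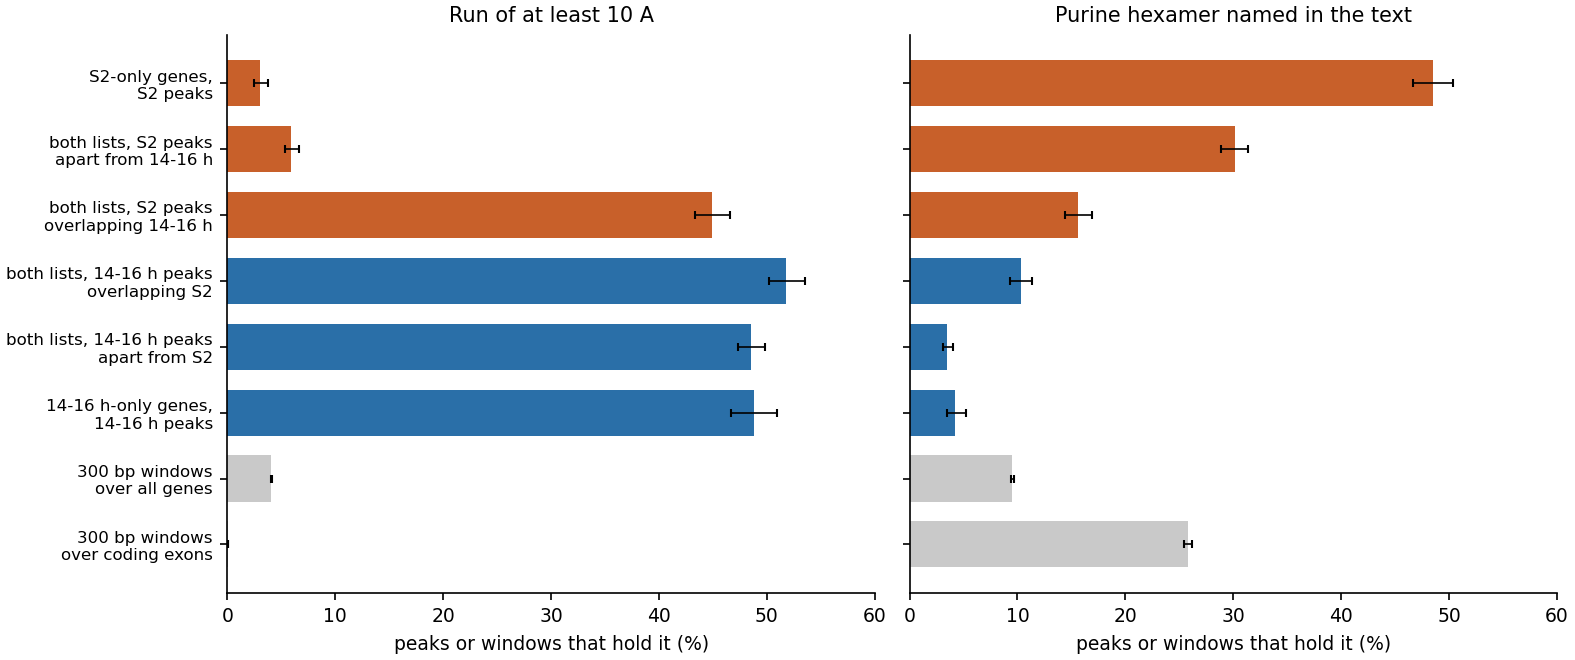
Share of peaks, in percent, that hold a run of at least 10 A (left) or the hexamer GGAGGA (right) in their central 300 bases, for S2 peaks (orange), 14–16 h peaks (blue) and 300 bp windows over genes (grey); bars are shares and error bars 95% Wilson intervals. Runs of A were in 3.05% of S2 peaks of S2-only genes and 48.8% of 14–16 h peaks of genes in that list only, while the hexamer was in 48.5% and 4.25%.

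S2-only peaks lay mostly in protein-coding sequence. Of 2702 S2 peak centres inside S2-only genes, 59.9% (58.1 to 61.8) fell in coding exons, 23.8% in noncoding exon parts and 16.3% in introns, whereas coding exons make up 42.3% of the length of these genes. Of 1863 peak centres of 14–16 h embryos inside genes of that list only, 7.62% (6.5 to 8.92) fell in coding exons, 39.5% in noncoding exon parts and 52.9% in introns, and coding exons make up 23.3% of that length. The same split appeared inside the genes that both lists share. There 12.3% (11.6 to 13) of S2 peak centres and 2.49% (2.2 to 2.81) of 14–16 h peak centres lay in coding exons, which are 10.2% of the length, and 72.2% and 79.9% lay in introns. On X alone, coding exons held 65.9% of S2 peak centres in S2-only genes and 6.37% of 14–16 h peak centres in genes of that list only. Within coding exons, GGAGGA was in 64.1% of S2 peaks of S2-only genes and 12.7% of 14–16 h peaks of the other class.

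Zones of 500 bp at gene ends held closer shares of the peaks of the exclusive classes. A zone of 500 bp around the gene start held 32.3% (30.7 to 34.1) of S2 peaks in S2-only genes and 30.8% (28.9 to 32.7) of 14–16 h peaks in genes of that list only, and the zone around the gene end held 20.1% (18.7 to 21.6) and 23.5% (21.8 to 25.3). Peaks were of similar width, with medians of 400 bp and 370 bp. Widths over 1 kb were found for 6.35% of S2 peaks in S2-only genes and for 2.4% of 14–16 h peaks in genes of that list only. The widest belonged to kl-2, a Y-linked dynein heavy chain gene needed for male fertility, with 4696 bp in S2 cells, and to pre-rRNA:CR45856, with 5318 bp in 14–16 h embryos, where near-identical copies make the placement of reads uncertain. Among genes of both lists the widest was the 11996 bp S2 peak in Msp300, a giant nuclear-anchoring protein gene of muscle.

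The lists also differed in how often a peak had a partner on the other strand. Such a partner, overlapping by 50% reciprocally, was found for 5.9% (5.09 to 6.82) of S2 peaks in S2-only genes and for 41% (38.9 to 43.1) of 14–16 h peaks in genes of that list only. In genes of both lists the shares were 9.3% and 43.3%, and over the whole lists 9.89% and 44.5%. 27.4% of S2-only genes held an S2 peak on their antisense strand, and 62% of the genes of 14–16 h embryos only held a 14–16 h peak there. A gene absent from a list on its own strand could still be present on the other: 21.2% of the genes of 14–16 h embryos only carried an antisense S2 peak, and 7.58% of S2-only genes carried an antisense 14–16 h peak. Without the peaks that had a partner, S2-only genes numbered 2768, genes of both lists 1838 and genes of 14–16 h embryos only 1056.

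The chromosome of a gene went with its class. On X, 5.62% (4.81 to 6.55) of 2704 genes were S2-only and 17.6% (16.3 to 19.1) were in 14–16 h embryos only, while on the large autosome arms together the shares were 15.4% (14.9 to 16) and 7.05% (6.65 to 7.47). Arm 2L stood at the other end from X, with 19.4% of its genes S2-only and 5.3% in 14–16 h embryos only. Arms 3R and 2R followed 2L, with 17.3% and 6.25% on 3R and 13.8% and 6.91% on 2R. On 3L the shares nearly met, at 10.9% (9.95 to 12) and 9.94% (8.99 to 11), with overlapping intervals. The small chromosome 4 held 8 S2-only genes and 22 genes of 14–16 h embryos only, of 114. The share of genes in both lists varied less, between 11.6% and 14.3% on the large arms and X.

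Peaks outside genes and on the antisense strand had the same chromosome pattern as those on the strand of genes. The number of S2 peaks over that of 14–16 h peaks on X was 0.385 for peaks on the strand of a gene, 0.357 for antisense peaks and 0.457 for peaks outside genes. On 2L the ratios were 1.55, 1.44 and 1.74. In genes of both lists, the S2 minus 14–16 h difference on the sense strand and that on the antisense strand went together, with Spearman's rho of 0.74 over 380 genes on X and 0.51 over 1932 genes on the autosome arms (Pearson's r 0.96 and 0.76). These are correlations across genes, whose values share libraries and neighbourhoods, and carry no p. The number of copies of each chromosome in the cultured line and in embryos was not measured in these lists, so chromosome-wide differences between the samples and gene-specific ones cannot be told apart by chromosome counts alone.

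Along the chromosomes the pattern was regional. Of 23 windows of 1 Mb on X, 22 held more peaks in 14–16 h embryos, 0 held more in S2 cells, and the ratio of S2 to 14–16 h peaks ranged from 0.112 to 1. The lowest window, X from 4000001 to 5000000, held 52 S2 peaks and 463 peaks of 14–16 h embryos, and its 99 genes included 1 S2-only gene and 29 genes of 14–16 h embryos only. In the first 12 Mb of X the ratio was 0.197, with 2.37% of 1394 genes S2-only and 22.8% in 14–16 h embryos only. In the rest of X it was 0.629, with 9.08% and 12.1% of 1310 genes. Arm 3L was split the other way: its first 3 Mb had a ratio of 1.96, with 22.2% and 3.17% of 441 genes, and the remaining 3L had 0.623, with 9.31% and 10.9%. The borders of these blocks were drawn after the windows had been seen. On 2L, 20 of 23 windows held more S2 peaks, and the highest, from 1000001 to 2000000, held 422 S2 peaks and 153 of 14–16 h embryos.

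**Figure D2:**
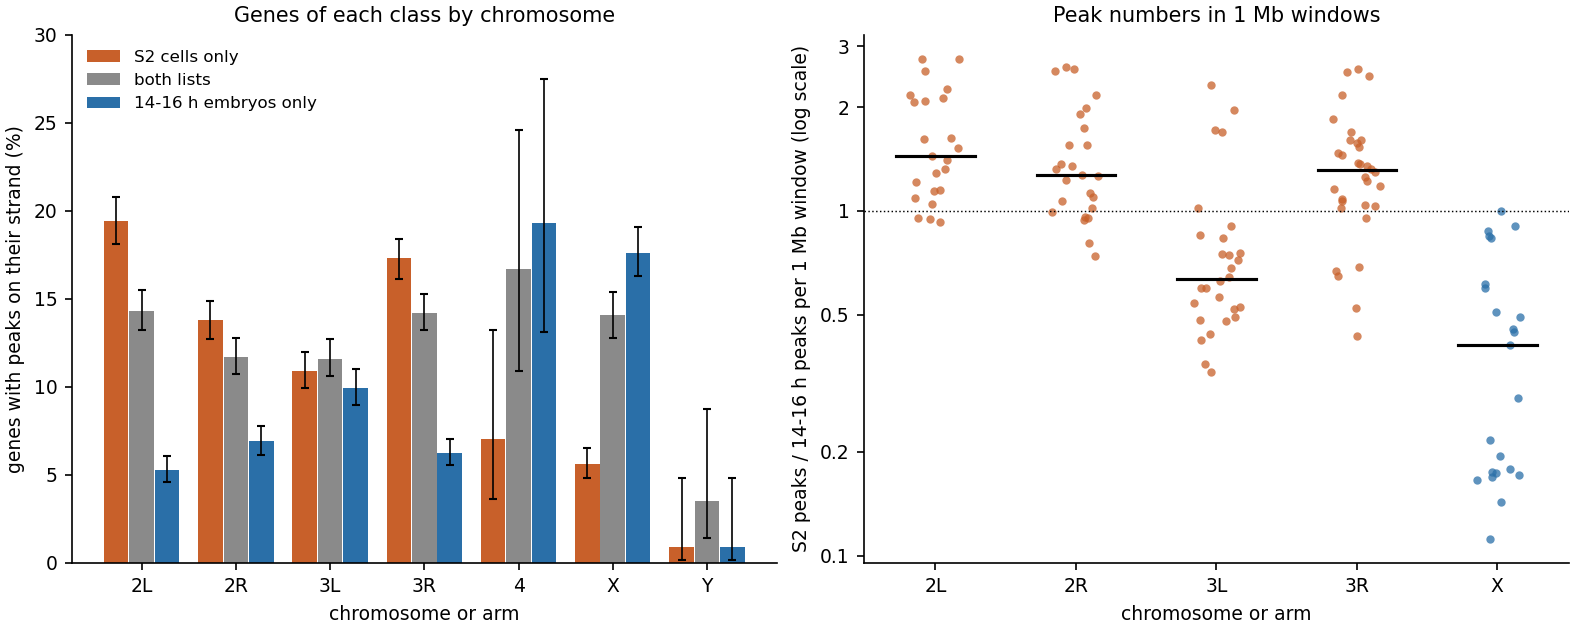
Left, percent of the genes of each chromosome or arm with peaks on their strand in S2 cells only (orange), in both lists (grey) or in 14–16 h embryos only (blue), with 95% Wilson intervals; right, the ratio of S2 to 14–16 h peaks in each 1 Mb window on a log scale, 1 point per window, with a line at the median of each arm. X is the only arm shown without a window above 1, with a median ratio of 0.409, and 2L has a median of 1.44.

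Most S2-only genes held a single peak. Of the 2455, 2071 (84.4%) held 1 peak, and the highest number was 7. That number was reached by pnr, a GATA factor gene of dorsal patterning and heart formation, and Akap200, which encodes an anchor of protein kinase A. In pnr (3R, 16026079 to 16041796, forward strand) the 7 S2 peaks were 312 to 1312 bp wide, with 6 centred in introns and 1 just upstream, and no peak of 14–16 h embryos lay on that strand. In Akap200 (2L, 8415690 to 8431297, forward strand) 6 of the 7 S2 peaks were centred in introns and 1 in a coding exon. Runs of A were in 0 of the 7 peaks of pnr and 0 of the 7 of Akap200. Both genes held S2 peaks on the antisense strand as well, 4 in pnr and 5 in Akap200, and 14–16 h embryos had 1 and 0 there.

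The S2-only genes next in number were alph, a phosphatase gene acting in Ras signalling, salr, a spalt-family zinc finger gene, and Usp10, a ubiquitin protease gene, with 6 S2 peaks each. They were followed by CG43366, Dhc98D, a dynein heavy chain gene, and Hyls1, which shares its annotated span and peaks with chif, with 5 each. In Dhc98D, 4 of the 5 peaks were centred in coding exons and 3 held GGAGGA. Embryos of 2–3 h had peaks in 6 of these 8 genes, with 5 in Akap200, 3 in pnr and in Hyls1, 2 in salr and in Dhc98D and 1 in Usp10, and had 0 in alph and CG43366. The genes lay on 2L, 2R, 3L and 3R, and Usp10 lay at 871899 on 3L, in the first 3 Mb of that arm where S2 peaks were more numerous. These genes were named because they held the most peaks, so their counts describe the class and support nothing further.

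Replication-dependent histone genes formed a compact S2-only group. These genes encode the histones packed onto newly copied DNA and are repeated in 1 cluster, here on 2L from 21416953 to 21541681. Of 111 such genes, 74 were S2-only, 13 were in both lists and 4 were in 14–16 h embryos only, beside 13.8%, 13.1% and 8.7% of all genes. By type, S2 peaks and 14–16 h peaks were found in 22 and 5 of 23 His1 genes, in 17 and 4 of 20 His2A genes, in 23 and 3 of 23 His2B genes, and in 22 and 0 of 22 His4 genes. His3 genes differed, with S2 peaks in 3 and 14–16 h peaks in 5 of 23. Embryos of 2–3 h had peaks in 86 of the 111. The copies are nearly identical, so which copy a read came from is uncertain and the genes are not independent. The group was singled out after its values were seen. It made up 3.01% of the S2-only class, and without it 17.9% of the genes on 2L were S2-only.

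The genes with peaks in 14–16 h embryos only were led by genes on X. Of the 1548 genes, 1229 (79.4%) held 1 peak, and the highest number was 23 in bi, a T-box factor gene of wing and optic lobe patterning. Next came cac, the gene of a presynaptic calcium channel, with 22, nAChRalpha3, a nicotinic acetylcholine receptor subunit gene, with 19, and sdt, an apical polarity gene, and DIP-alpha, a synaptic immunoglobulin gene, with 16 each. They were followed by CG33181 with 11, CG3655 with 10 and stx, a regulator of Polycomb proteins, with 9. S2 cells had no peak on the strand of any of the 8. All 8 lay within the first 12 Mb of X, where 22.8% of genes fell into this class.

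In bi (X, 4412856 to 4485647, forward strand) the 23 peaks of 14–16 h embryos were 241 to 1059 bp wide, 20 were centred in introns and 17 held a run of A. In cac (X, 11931280 to 11985087, reverse strand) 19 of the 22 were centred in introns and 18 held a run of A. No peak of 14–16 h embryos in bi or cac held GGAGGA. Peaks of 14–16 h embryos also lay on the antisense strand, with 24 in bi and 13 in cac, while S2 cells had 2 and 1 there. Embryos of 2–3 h already had peaks in all 8 genes, with 16 in bi, 12 in cac and 11 in nAChRalpha3.

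**Figure D3:**
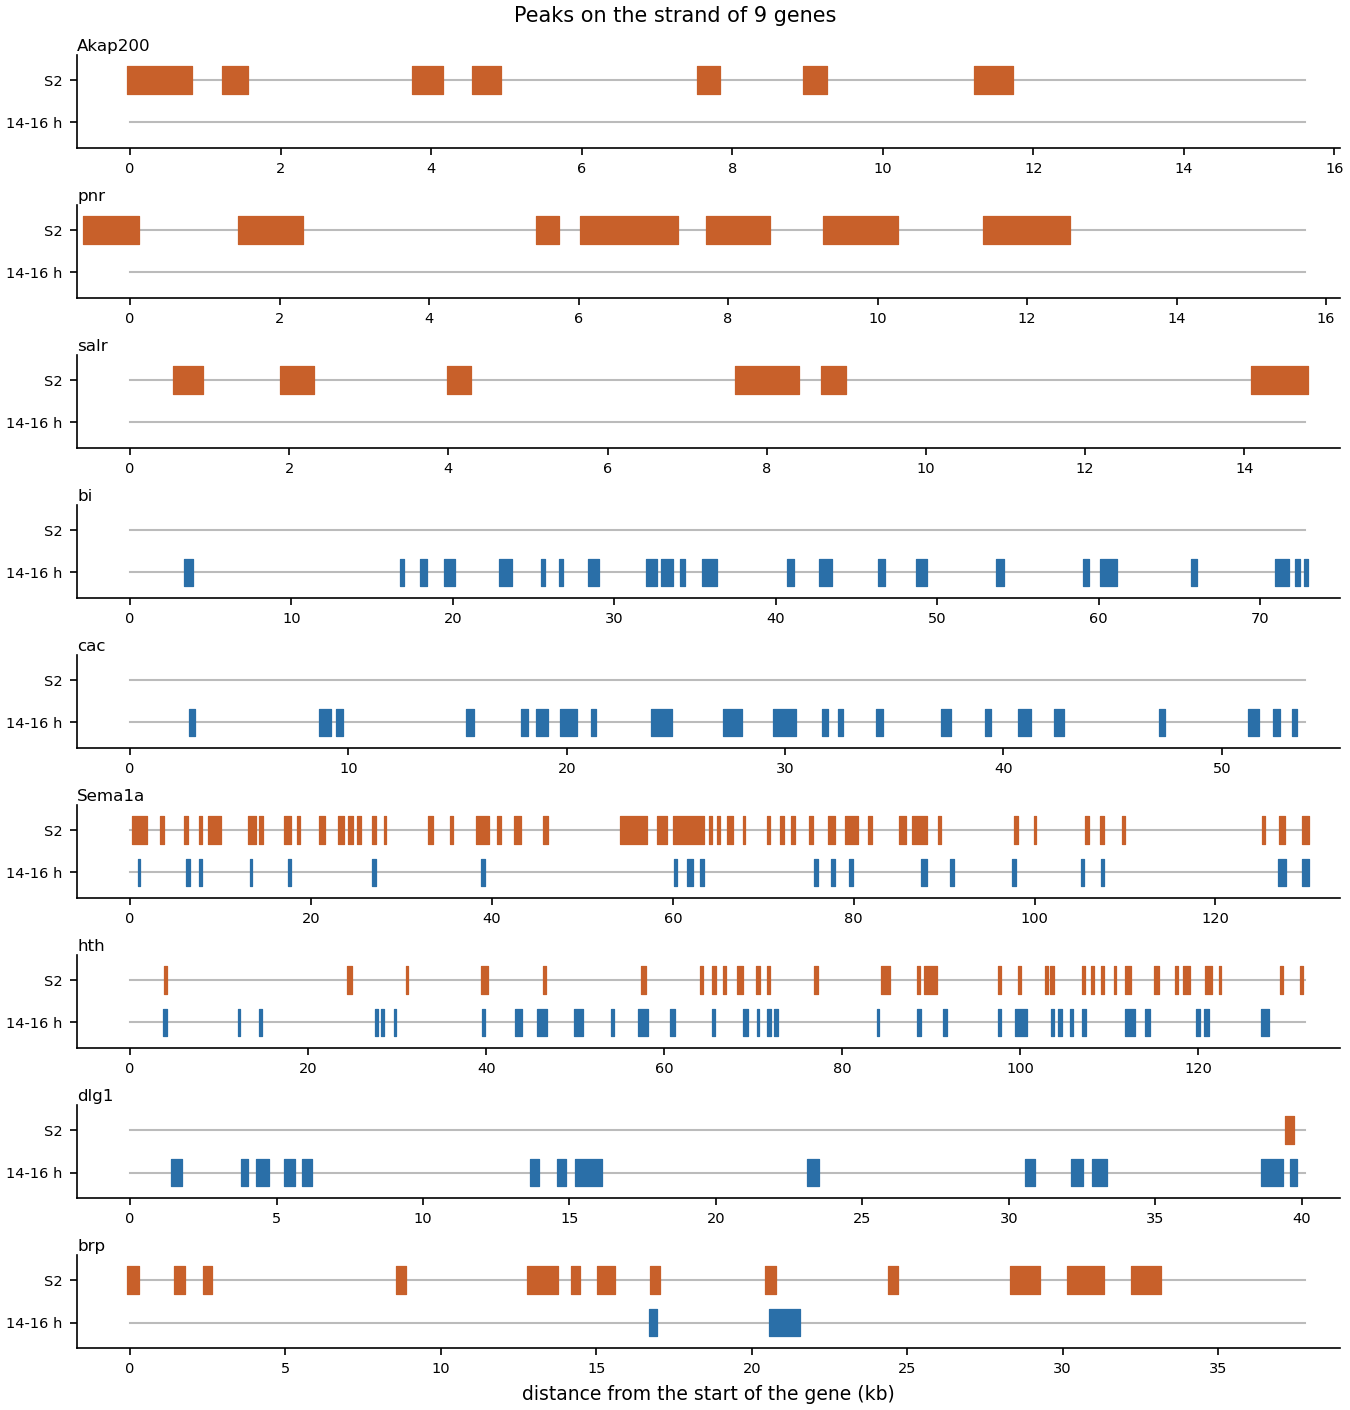
Peaks on the gene's strand in 9 genes, drawn to scale against distance from the gene start in kb, with S2 peaks in orange above and 14–16 h peaks in blue below, and a grey line for the gene. Akap200, pnr and salr hold S2 peaks alone, bi and cac 14–16 h peaks alone, and Sema1a, hth, dlg1 and brp hold both in unequal or equal number.

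Among the 2335 genes in both lists, 721, or 30.9% (29 to 32.8), held more S2 peaks, 832 (35.6%) held equal numbers and 782, or 33.5% (31.6 to 35.4), held more peaks of 14–16 h embryos. With at least 2 times the peaks and at least 2 more required, 277 genes had more in S2 cells and 354 more in 14–16 h embryos. The direction followed the chromosome here too: on 2L 38.7% held more S2 peaks and 20.6% more 14–16 h peaks, and on X 16.8% and 55%. Of the 832 genes with equal numbers, 648 had 1 peak in each list, and in 440 of these the peaks overlapped. At least 1 overlapping pair was found in 1782 genes, or 76.3% (74.6 to 78). Taken over peaks, 40.3% of the 8834 S2 peaks and 35.6% of the 10056 peaks of 14–16 h embryos in these genes overlapped a peak of the other list. The bases covered in both lists made up a median of 17.3% of those covered in either, and in genes with equal numbers 32.3%.

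The largest excess of S2 peaks was in the following genes. DIP-lambda, a synaptic immunoglobulin gene of 379081 bp on 2R, held 85 S2 peaks and 26 of 14–16 h embryos, all centred in introns. CG17684 held 58 and 18, Sema1a, a semaphorin gene of axon guidance on 2L, held 46 and 20, dpr21, of the partner family of the DIP proteins, held 32 and 7, and sick held 30 and 11. Of the 85 S2 peaks in DIP-lambda, 21 overlapped a 14–16 h peak. These genes lay in 1 Mb windows where S2 peaks were more numerous. The ratio of S2 to 14–16 h peaks was 2.62 in the window of DIP-lambda and 2.58 in that of dpr21. It was 2.25 for Sema1a, 2.08 for sick, and 2.17 and 1.91 in the windows that CG17684 spans. The windows include the peaks of the genes themselves. In jing, a zinc finger gene related to a Polycomb cofactor, 19 S2 peaks and 3 peaks of 14–16 h embryos shared no base, and in brp, which encodes the scaffold of the presynaptic active zone, the numbers were 13 and 2.

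The largest excess of 14–16 h peaks was on X throughout. The gene kirre, whose product attracts myoblasts for fusion, held 21 S2 peaks and 99 of 14–16 h embryos. Ten-a, a teneurin gene of synaptic matching, held 17 and 80, lncRNA:CR44357 held 8 and 66, lncRNA:CR32773 held 2 and 55, and lncRNA:CR44999 held 6 and 48. Of the 99 peaks of 14–16 h embryos in kirre, 56 held a run of A, and so did 40 of the 80 in Ten-a, while 7 of 21 and 9 of 17 S2 peaks did. The span of lncRNA:CR32773 lies over bi on the opposite strand, so that the 24 antisense peaks of bi are among its 55. Equal numbers were highest on 3R. The homeobox gene hth held 32 in each list, CG34353 held 28 and cpo, an RNA-binding protein gene of neurons, held 25. Even so, 14 of the 32 S2 peaks in hth overlapped a 14–16 h peak, and the shared bases were 20.5% of those covered.

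**Figure D4:**
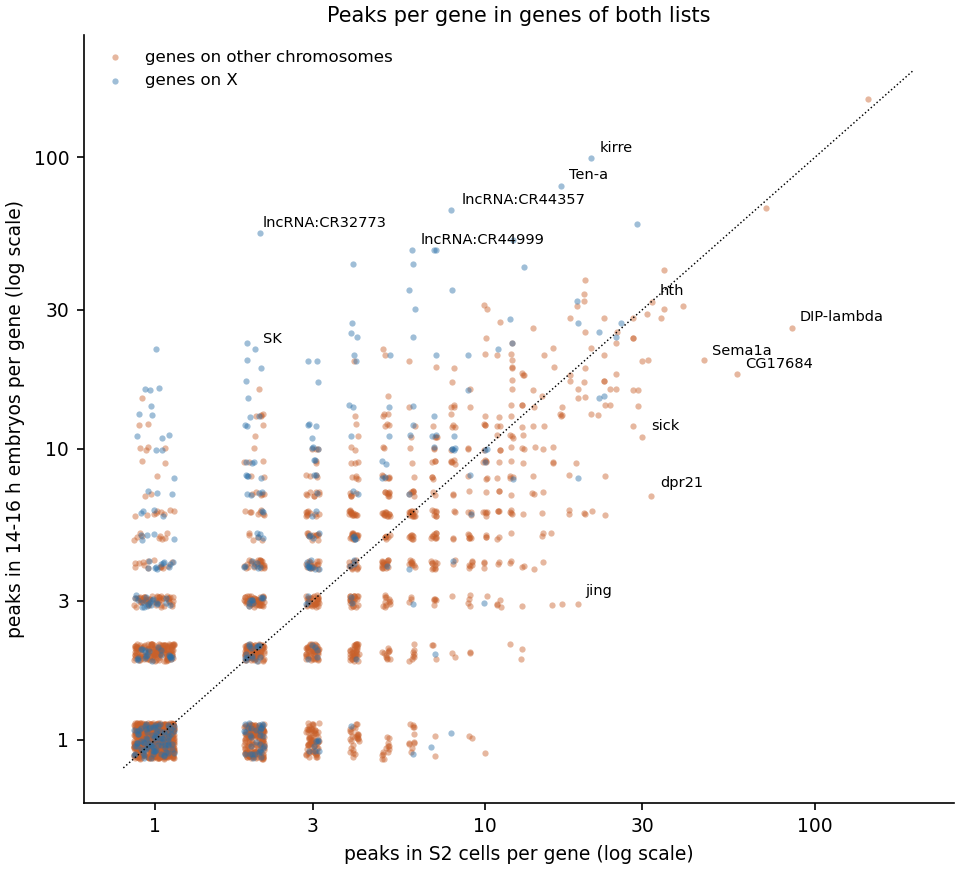
Peaks per gene in S2 cells (x axis) and 14–16 h embryos (y axis), both on log scales, for the 2335 genes of both lists, with genes on X in blue, genes on other chromosomes in orange and the dotted line at equal numbers; points are spread slightly so that equal counts do not hide each other. Above the line, kirre at 21 and 99 and Ten-a at 17 and 80, both on X, have the largest excess of 14–16 h peaks in number, and below it DIP-lambda at 85 and 26 has the largest excess of S2 peaks.

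Genes were also grouped by function in 19 lists, whose members were matched to the annotation by symbol. Each list is described by its counts of S2-only genes, genes of both lists and genes of 14–16 h embryos only, beside 13.8%, 13.1% and 8.7% of all genes, and no list was tested. Long genes are in both lists more often. Among the 1780 longest genes, of at least 11517 bp, 74% were in both lists, 7.98% were S2-only and 13.3% were in 14–16 h embryos only, while the median lengths of the classes were 2337 bp for S2-only genes, 14298 bp for genes of both lists, 3534 bp for genes of 14–16 h embryos only and 1254 bp for genes of neither. The median length of each list is therefore given with it.

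Most genes of the ribosome, the proteasome and the cell cycle held no peak in either list, at 77.2%, 77.1% and 65.5%. Over all genes this share was 64.4%, so the cell cycle genes were near it, and the other lists hold short genes. Of 92 cytoplasmic ribosomal protein genes, with a median length of 1315 bp, 15 were S2-only, 2 were in both lists and 4 were in 14–16 h embryos only. On the autosome arms these numbers were 15, 1 and 0 of 77, and on X 0, 1 and 4 of 14. RpS3 and RpLP1 held 1 S2 peak each and RpL22 and RpL36, on X, held 1 peak each in 14–16 h embryos. Proteasome genes, with a median of 1381.5 bp, had the same arrangement, with 9, 0 and 2 of 48 overall and 8, 0 and 0 of 42 on the autosome arms. Rpn1, a base subunit, held 2 S2 peaks and none of 14–16 h embryos. Of 58 cell cycle genes, 7, 7 and 6 fell into the classes, with 7, 7 and 2 of 49 on the autosome arms and 0, 0 and 4 of 9 on X. On the autosome arms they held 26 S2 peaks and 23 of 14–16 h embryos, with 5 and 8 in E2f1 and 4 and 6 in CycE, where both differences turned to S2 cells, at 3 and 2, with peaks of either strand. The S2-only members included the replication genes Mcm2, Cdc6, Orc2 and dup and the mitotic kinase gene polo with 1 peak each. Myc and Mnt, encoding a growth regulator and its antagonist on X, held 0 S2 peaks, and 8 and 7 peaks of 14–16 h embryos. The checkpoint kinase gene grp held 6 S2 peaks and 1 of 14–16 h embryos.

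The S2 line has features of hemocytes, the fly's blood cells. Of 27 hemocyte genes (median length 4145 bp), 7 (25.9%) were S2-only, 9 (33.3%) were in both lists and 2 (7.41%) were in 14–16 h embryos only. Of all 1779 genes of 3150 to 5100 bp these shares were 22.1%, 10.1% and 11.4%, so the S2-only share lay near that of genes of such length. Hml, a clotting protein gene, and eater, a phagocytic receptor gene, held 1 S2 peak and no peak of 14–16 h embryos, but the marker genes NimC1 and He held none in either list and the scavenger receptor gene crq held 1 in 14–16 h embryos only. The GATA factor gene srp held 3 and 2, its partner ush 15 and 4, and Pxn, a peroxidase gene of the extracellular matrix, 9 and 4. Markers of other cell types gave no uniform picture. The glial gene repo held 2 S2 peaks and 0 of 14–16 h embryos, and gcm and the neuronal gene elav none in either list. Of other neuronal genes, brp held 13 and 2 and Syt1 7 and 6, while nSyb held 1 and 2 and para 4 and 20. Of muscle genes, the myosin gene Mhc held 9 and 4 and sls 16 and 9, while wupA held 3 and 4. Of 31 Toll and Imd immune genes, 1, 8 and 2 fell into the classes, with 9 and 10 peaks in the receptor gene Tl, a difference that turned to 5 with peaks of either strand, and 4 and 0 in Dif, an NF-κB factor gene. Of 12 JAK/STAT genes, 4, 2 and 2 did, with 23 and 14 peaks in the phosphatase gene Ptp61F, where equal numbers per 1 Mb window turned the difference to -2, and 1 S2 peak in each of Stat92E and dome.

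Lists of neural and muscle genes had at least 50% of their members in both lists. Of 51 axon guidance genes, with a median length of 32017 bp, 1 was S2-only, 38 were in both lists and 7 were in 14–16 h embryos only. Within the 38, 20 held more S2 peaks and 14 more 14–16 h peaks. The guidance ligand gene sli held 20 S2 peaks and 6 of 14–16 h embryos, its receptor gene robo2 held 16 and 3, the receptor phosphatase gene Lar held 34 and 28, and on X the adhesion genes Fas2 and Nrg held 3 and 20 and 1 and 16. Of 46 ion channel genes (22669.5 bp) 6, 30 and 4 fell into the classes, with 8 of the 30 holding more S2 peaks and 19 more 14–16 h peaks. On X, SK, a calcium-activated potassium channel gene, held 2 and 22 and the sodium channel gene para 4 and 20, while on 2R the potassium channel gene SLO2 held 16 and 5. With the same number of widest peaks taken from each list in every 1 Mb window, S2 minus 14–16 h was -8 in Lar, where the direction turned. The direction of a named neural gene was often that of its arm. Among the exceptions were Nmdar2 on X, an NMDA receptor subunit gene, with 7 and 1, and nAChRalpha6 on 2L, with 18 and 28.

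Synaptic genes (40, median 22752 bp) had counts of 7, 25 and 4, with the scaffold gene dlg1 on X at 1 S2 peak and 14 peaks of 14–16 h embryos and Snap25, a vesicle fusion gene, at 18 and 18. Of 32 genes of the Dpr and DIP families (32525.5 bp), 0, 22 and 5 fell into the classes, and of 42 neural fate and glial genes (11890.5 bp) 6, 21 and 2. In that list the neuroblast factor gene pros held 20 and 15, brat, a translational repressor gene, 19 and 9, and Lim1 on X 2 and 20. Muscle and sarcomere genes (50, 11120.5 bp) had 2, 29 and 8, with sls, encoding a titin-like protein, at 16 and 9 and how, an RNA-binding protein gene, at 2 and 13. Cadherin and teneurin genes (19, 21952 bp) had 0, 13 and 3, with CadN at 24 and 16. Under equal numbers of widest peaks per 1 Mb window the direction turned in pros, to a difference of -3, and in CadN, to -9. Cuticle protein genes are short, at a median of 957 bp, and 16, 8 and 6 of 123 fell into the classes.

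Developmental regulators were grouped in 4 lists. Of 40 segmentation and Hox genes (6747.5 bp), 7, 20 and 2 fell into the classes. Antp held 23 S2 peaks and 17 of 14–16 h embryos and Ubx 21 and 13, and both differences turned to -2 with equal numbers per 1 Mb window. Dfd and cad held 2 and 3 S2 peaks and none of 14–16 h embryos. Of 35 Polycomb and trithorax genes (8923 bp), 7 (20%), 12 and 2 did, with the S2-only members including Pc, E(z), Su(z)12 and brm at 1, 2, 1 and 2 peaks and Asx at 4. The S2-only share was 22.7% among all 1779 genes of 5101 to 11511 bp. Of members in both lists, lola held 19 and 16 and jing 19 and 3, while psq held 11 and 13 and tna 3 and 8. Of 29 Notch pathway genes (2689 bp), 4, 9 and 2 fell into the classes. The receptor gene N on X held 2 and 13, the protease gene kuz on 2L held 11 and 21, and the coactivator gene mam on 2R held 14 and 14. Of 29 ecdysone and nuclear receptor genes (22426 bp), 0, 20 and 1 did, with EcR, the hormone receptor gene, at 13 and 14 and Eip93F, a hormone-induced factor gene, at 5 and 21. Without peaks that had a partner on the other strand, S2 minus 14–16 h turned to 1 in kuz and 3 in EcR. Glycolysis genes had 1, 2 and 1 of 13, with Ldh, the lactate dehydrogenase gene, at 0 and 2.

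**Figure D5:**
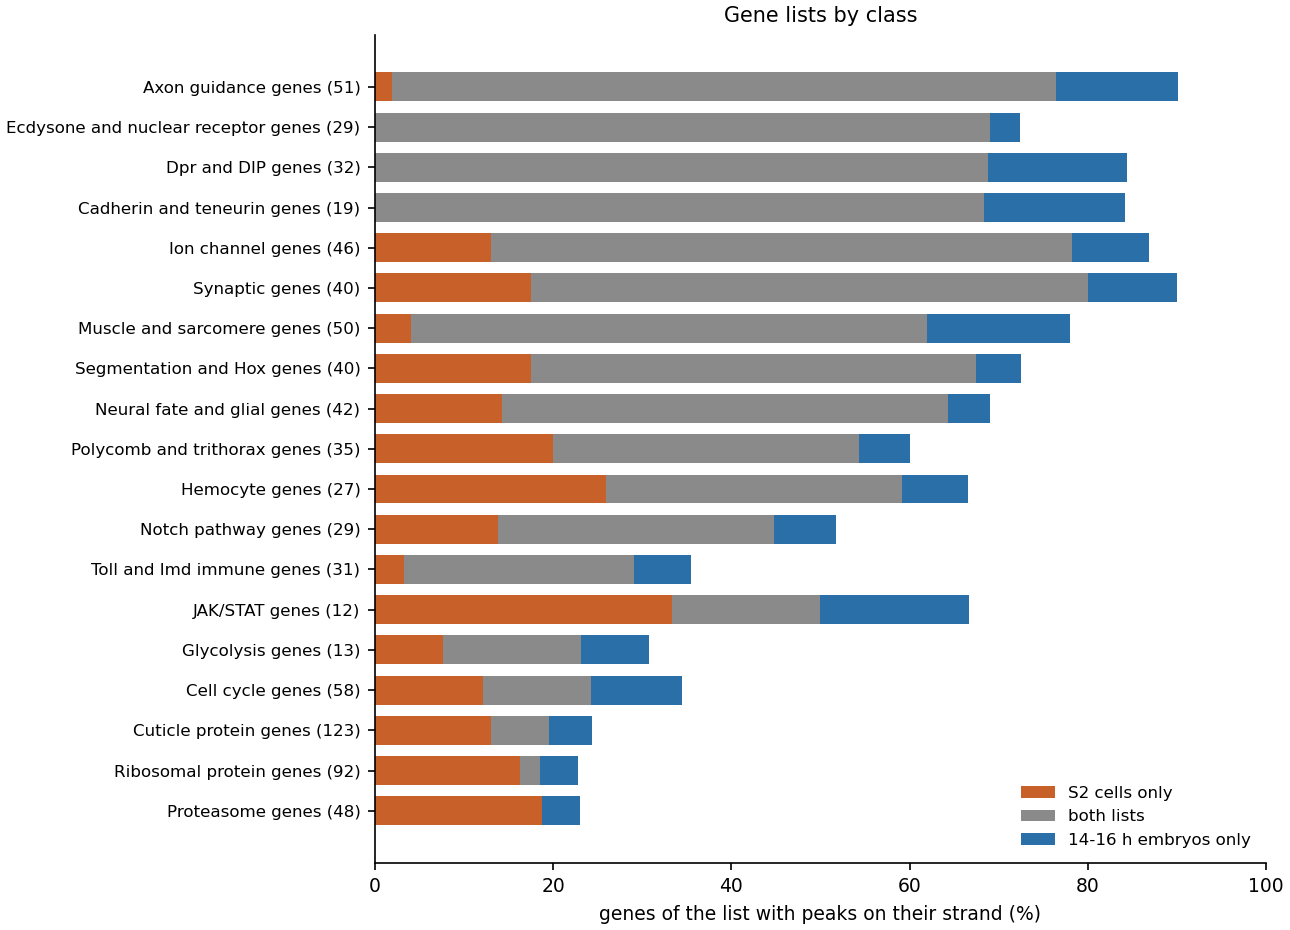
Percent of the members of each gene list, whose size is in parentheses, with peaks on their strand in S2 cells only (orange), in both lists (grey) and in 14–16 h embryos only (blue). Axon guidance genes reach 74.5% in both lists, while ribosomal protein and proteasome genes are at 16.3% and 18.8% in S2 cells only.

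Few tRNA, snoRNA and miRNA genes held peaks, while 27% of 5S rRNA genes were in 14–16 h embryos only. Of 290 tRNA genes, 3 were S2-only, 2 were in both lists and 27, or 9.31%, were in 14–16 h embryos only, near the 8.7% of all genes. The 27 lay on 22 distinct peaks. Of 100 5S rRNA genes, 6, 11 and 27 fell into the classes, but the 27 genes shared 11 peaks of 14–16 h embryos and the copies are nearly identical. Of 269 snoRNA genes 9, 0 and 7 did, and of 260 miRNA genes 8, 6 and 9. Genes that overlap on a strand share peaks: 4.54% of S2 peaks and 4.83% of 14–16 h peaks on the strand of a gene lay in more than 1 gene, and 460 genes held exactly the peaks of another gene.

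Embryos of 2–3 h had peaks in similar shares of both exclusive classes. They held a peak on the strand of 43.9% (42 to 45.9) of S2-only genes and 45.3% (42.9 to 47.8) of genes of 14–16 h embryos only, with overlapping intervals, and of 87.4% (86 to 88.7) of genes in both lists and 3.04% of genes in neither. On X the shares were 47.4% (39.6 to 55.3) of S2-only genes and 54.3% (49.8 to 58.7) of genes of 14–16 h embryos only. The peaks of these early embryos resembled the class they fell in. In S2-only genes 5.32% of them held a run of A and 52.1% held GGAGGA, and in genes of 14–16 h embryos only 53.4% and 10.2%. The list of 2–3 h embryos did not enter the rule that formed the classes. The rule still keeps early peaks that share a site in the gene with a 14–16 h peak out of S2-only genes, and those that share one with an S2 peak out of the other class. The likeness is therefore not independent of the rule.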

How the data were processed

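ssDRIP-seq was performed on S2 cells and on Oregon R embryos of 2–3 h and 14–16 h. The authors trimmed reads with Trimmomatic, mapped them to dm6 with bowtie2, marked duplicates with picard, separated strands with SAMtools and ran MACS2 on the replicates jointly. In their methods RNase H1-treated ssDRIP was the control, their results add the input, and peaks on both strands with 90% reciprocal overlap were removed. The deposited lists, made by the authors, give start, end and width in bp, with no other value such as a height, fold, count or score, so depth is unknown.

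Genes came from the RefSeq annotation of dm6. Peaks were assigned to every gene they overlapped by at least 1 bp on its strand. Sequence was read on the peak's strand, and the motifs searched, A runs, runs of A or G and GGAGGA, were counted once per peak. Named genes were those with the most peaks, the largest difference, the highest equal counts or the widest peak of a class, and up to 4 members of each gene list with the most peaks. Other members given with values, among them cell type markers, jing, repo, polo and the ribosomal protein genes, were chosen after their values were seen. Members and lists were chosen with earlier results of these data known. The motifs, the chromosome blocks and the histone group were chosen after the lists had been examined. Alternatives changed overlap, strand, gene set, gene borders, peak set and assignment. Programs were tested on simulated data. Computation used matplotlib 3.10.9, SciPy 1.17.1, NumPy 2.4.6 and Python 3.11.15. Some items are not reported here.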

Additional observations from a re-analysis of the deposited data

How the results depend on the processing

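No paired analysis was possible because both replicates are pooled in each deposited list, and leaving out a replicate was not run for the same reason. Of the alternatives for gene classes and peak counts, 12 were listed at the start. A further 4, those that equalize peak numbers or keep X or the autosome arms alone, were added after seeing the data. The alternatives for runs of A and for coding exons, given below, were not listed at the start either. With equal numbers of the widest peaks on each chromosome, 81.1% of S2-only genes and 77.6% of genes of 14–16 h embryos only kept their class. In each 1 Mb window 77.6% and 68.7% did. Fewer did under 2 listed alternatives that kept 14152 of 28464 S2 peaks. These shares were 53.9% and 51.7% with peaks wider than the median, and 53.9% and 50.1% with the same number of widest peaks. With the peak centre inside the gene they were 90.4% and 76.5%, and without partnered peaks 94.7% and 66%. Width stood in for a threshold, since no height is given, and the cause of the changes below was not tested.

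Genes of both lists numbered 1279 with peaks wider than the median, 1272 with the same number of widest peaks and 380 on X, where S2-only genes numbered 152 and genes of 14–16 h embryos only 477. Those with more S2 peaks numbered 384, 387 and, on X, 64. Those with more 14–16 h peaks numbered 428, 417 and, on X, 209, and were 1300 with either strand, 515 with no other gene on the strand and 411 without partnered peaks. The share with an overlapping pair, 76.3%, was 78.3% with either strand, 74.5% among coding genes, 74.3% with no other gene on the strand, 69.1% with wider peaks, 68.8% with the same number of widest peaks, 67.5% without partnered peaks, 60.7% with 50% reciprocal overlap, 73.4% with equal numbers per chromosome and 72.6% per window.

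Runs of A in S2 peaks of S2-only genes were at 6.98% for 8 A, 1.44% for 12 A, 4.46% in whole peaks and 5.06% on X. In 14–16 h peaks of genes of that list only they were at 63.2%, 30.4%, 55.4% and 52.8%, with 45.9% on the autosome arms and 53.8% without partnered peaks. Coding exons held 67.1% of S2 peak centres in S2-only coding genes, 62.8% with no other gene on the strand and 65.9% on X, and 6.37% of 14–16 h peak centres on X.

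The sign of S2 minus 14–16 h peaks turned in some named genes. With either strand it was 5 in Tl, 3 in E2f1, 2 in CycE and 3 in EcR. With wider peaks it was 1 in Tl, cact and numb, 2 in EcR and -1 in ds, and the same with the same number of widest peaks, which added 1 in dpr6. Without partnered peaks it was 3 in Msp300, Con, psq and EcR, 1 in Tl, CycE, pb and kuz, and 10 in Eip75B. With equal numbers per chromosome it was -4 in Lar and ds, 10 in Sh, 7 in dpr8, 2 in mew, -2 in lola, -3 in CadN and CadN2, and -5 in tai. Per window it was -2 in Ptp61F, Antp and Ubx, -1 in RpL5, lola and tai, -8 in Lar and CadN2, -13 in Ptp99A, 2 in Sh, 6 in dpr8, 3 in dpr6, -3 in pros, -9 in CadN and -5 in ds.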
